A study of Mus musculus with 8 samples.

Results

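SMC1 peaks that were found in resting neurons alone and that lay in gene deserts numbered 318, of 12359 peaks in the resting list (2.57%, exact 95% interval 2.30 to 2.87%) and of 11038 resting peaks that overlapped no peak of the NMDA list. A peak belonged to them when it overlapped no NMDA peak, when its midpoint lay inside no annotated gene of any kind, and when that midpoint was more than 50 kb from the nearest gene end. Genes were those of the RefSeq annotation of GRCm38, coding and noncoding, and positions below are on that build, counted from 1. Overlap with the NMDA list and position both chose these peaks, so neither is a finding about them.

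Chromatin immunoprecipitation and sequencing had been carried out for SMC1, a subunit of the cohesin ring, in wild-type cortical neurons taken from Swiss-Webster mice at embryonic day 16 and kept for 13 days in culture. The resting group had no treatment, and the other group was given 50 µM NMDA, which activates one class of glutamate receptor, for 10 min and was collected after 50 min without the drug. Each group had 2 ChIP samples and 2 input samples, and each pair of ChIP samples gave 1 list of peaks seen in both. The labels call the replicates biological, and do not say whether cultures came from separate litters or how pure in neurons they were; a peak list holds no levels of marker genes by which the cell type could be checked.

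Cohesin holds 2 stretches of DNA within its ring and can reel chromatin into loops, and the insulator protein CTCF is the best known site at which this stops. Gene deserts are long stretches without genes. Many flank genes that control development, and some carry enhancers that act on a promoter far away, which brings loop formation into play. In cultured neurons cohesin is present although the cells no longer divide.

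SMC1 peaks were sparse in deserts. Those present were somewhat weaker than the intergenic peaks nearer to genes and had about the same width. Between the first and last gene of each autosome, deserts made up 389 Mb, 15.9% of the span. These deserts held 323 of the 12244 autosomal resting peaks (2.64%), or 0.83 per Mb. The rest of the intergenic sequence held 5.01 resting peaks per Mb, and genes held 6.39 per Mb. Sequence length was taken from gene positions alone, so it includes assembly gaps and repeats in which reads cannot be placed, and their part in the density was not tested.

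Density was lower at each step away from genes up to 200 kb. Resting-only peaks numbered 12.3 per Mb within 1 kb of a gene end, 6.29 per Mb from 1 to 5 kb and 1.99 per Mb from 25 to 50 kb. Inside the deserts there were 1.26 per Mb from 50 to 75 kb (140 peaks), 1.06 per Mb from 75 to 100 kb (76 peaks) and 0.64 per Mb from 100 to 150 kb (54 peaks). From 150 to 200 kb the density was 0.41 per Mb (18 peaks), and from 200 to 400 kb it was 0.46 per Mb (26 peaks), so the last 2 ranges were close to each other. Another 22.3 Mb lay more than 400 kb from any gene and held no resting peak.

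Peak strength did not follow the density. Strength here means the deposited −log10 p of a peak, added up over both replicates, and its median in the 5 occupied desert ranges lay between 28.0 and 31.5, against 28.1 to 32.9 in the 5 ranges within 50 kb of a gene. Across the 318 peaks strength and distance to the nearest gene end had a Spearman correlation of −0.06, given as a description over peaks of 1 list. A −log10 p grows with library depth as well as enrichment, and depth is unknown from the lists, so strengths were compared only within the resting list.

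**Figure D1:**
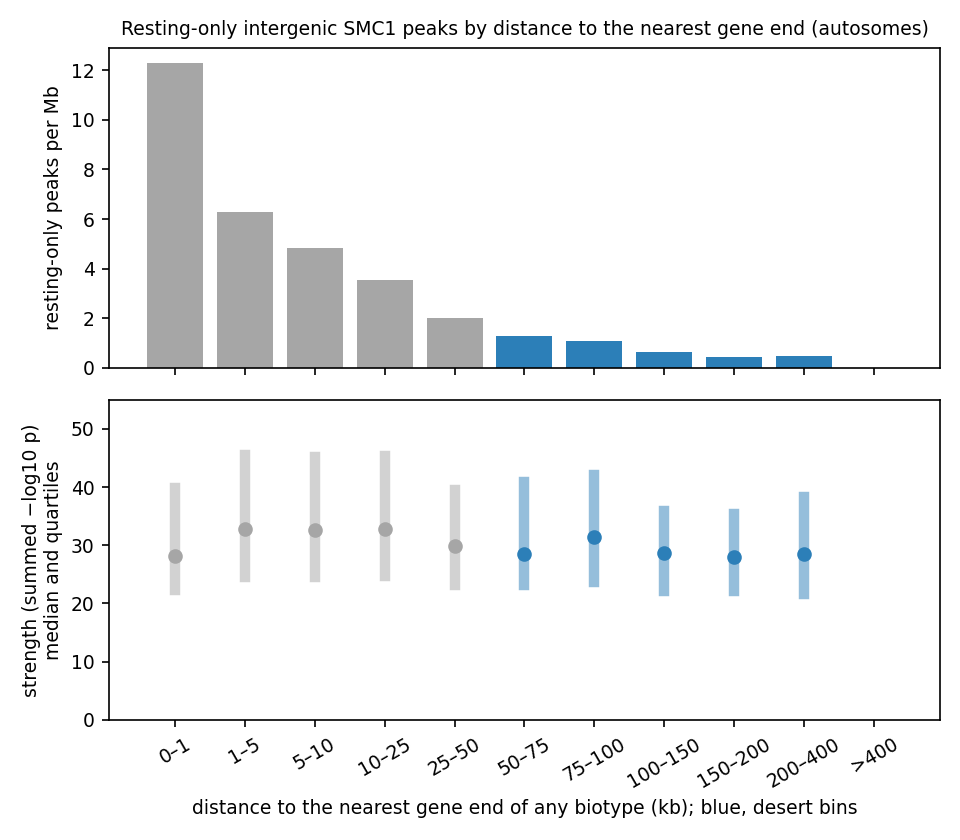
Top, resting-only intergenic SMC1 peaks per Mb of autosomal sequence; bottom, their strength (summed −log10 p; point, median; bar, quartiles), by distance to the nearest gene end in kb. Blue bins beyond 50 kb are the deserts: density there is 1.26 per Mb or less, while median strength stays between 28.0 and 31.5.

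The median strength of the desert peaks was 29.3 (quartiles 23.1 and 39.7, n = 318), with 17.3 for the weakest and 98.4 for the strongest. Resting-only intergenic peaks from 1 to 50 kb of a gene end had a median of 32.2 (24.4 and 44.5, n = 3289). Resting-only peaks inside genes had 29.9 (n = 4571), and those within 1 kb of a gene end 26.2 (n = 2860). Of the desert peaks 46.9% (exact 95% interval 41.3 to 52.5%) were stronger than the median of the whole resting list, and 18 of 318 were in its strongest 10% (5.66%, 3.39 to 8.80%). Among intergenic peaks nearer to genes these shares were 55.2% and 9.82%. Desert peaks were thus somewhat weaker than the nearer intergenic peaks and similar to those inside genes. Peaks of 1 list are not replicates of a condition, and no test was made on any of the differences described here.

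The median width of desert peaks was 577 bp (quartiles 440 and 749 bp). It was 568 bp for the nearer intergenic peaks, 589 bp inside genes and 782 bp at gene ends, so desert peaks had about the width of the first 2 classes. Stronger desert peaks tended to be wider (Spearman correlation 0.34 across the 318 peaks, a description). The summits of both replicates lay within 100 bp of each other at 269 of 318 desert peaks (84.6%), at 88.4% of the nearer intergenic peaks and at 57.0% of gene end peaks. The median gap between summits was 39.5 bp in deserts and 75 bp at gene ends.

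The replicate columns had medians of 13.9 and 14.3 at desert peaks, and of 15.9 and 15.6 at the nearer intergenic peaks. The first column ranged from 7.10 to 65.2 and the second from 6.38 to 61.3 over the 318 peaks. At 258 of 318 (81.1%) the 2 values were within 2-fold of each other, and the first was the higher at 156 (49.1%). Their Spearman correlation across the desert peaks was 0.29, against 0.42 across the nearer intergenic peaks; only peaks that passed in both replicates are listed, so this does not measure how well the libraries agree. Values also came in steps: 304 desert peaks had a first value that another peak of the list had too, and the 318 had 166 different first values and 151 different second values. Close strengths are therefore not resolved.

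**Figure D2:**
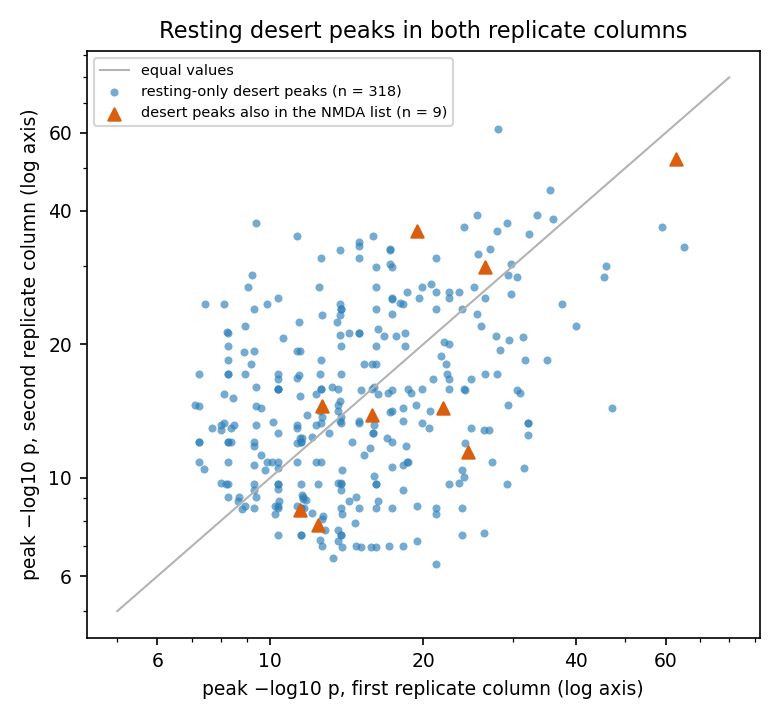
Peak −log10 p in the first (x, log axis) and second (y, log axis) replicate column for 318 resting-only desert peaks (blue points) and 9 desert peaks also in the NMDA list (orange triangles); the line marks equal values. Points lie on both sides of the line and in visible steps, and the triangles lie within the cloud except the 1 at 62.9 and 52.5.

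The strongest desert peaks lay beside genes of varied function. The first was on chromosome 1 at 80830288 to 80831040, with 65.2 and 33.2 in the 2 replicate columns and a strength of 98.4, rank 202 in the resting list. It lay 71.9 kb from Dock10, which encodes a guanine nucleotide exchange factor, and 246 kb from Nyap2, which encodes a neuronal adaptor of phosphoinositide 3-kinase signalling. The second, on chromosome 4 at 81178512 to 81179221, had 58.9 and 36.7 and lay 99.6 kb from the PDZ scaffold gene Mpdz. In both the first column was the higher.

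The third strongest lay between the transcription factor genes Tfcp2l1 and Gli2, on chromosome 1 at 118768835 to 118769453, with 28.0 and 61.3. Gli2 encodes an effector of Hedgehog signalling and was 64.9 kb away. Here the second column was the higher by more than 2-fold, so the rank of this peak rests mainly on 1 replicate. The fourth, on chromosome 7 at 72400041 to 72400726 with 35.5 and 44.6, had Mctp2 93.3 kb to one side and Rgma, the gene of a repulsive axon guidance molecule, 975 kb to the other.

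The next 2 by strength lay between Usp3 and Car12 (45.8 and 30.0) and between Samd12 and Tnfrsf11b (36.0 and 38.3). Tnfrsf11b encodes osteoprotegerin, a decoy receptor in bone. The seventh, a peak on chromosome 9 at 101689719 to 101690864 (45.4 and 28.4) lay 232 kb from Ephb1, a receptor for ephrins that steers growing axons. One on chromosome 13 at 99842654 to 99843001 (33.5 and 39.1) lay 55.7 kb from Cartpt, which encodes the CART neuropeptide precursor, and 326 kb from the microtubule protein gene Map1b. The peak on chromosome 3 at 35102497 to 35103671 (32.2 and 35.4) was 451 kb from Sox2, a factor of neural progenitors. All 5 of these peaks had replicate values within 2-fold of each other. The replicate summits of the peak flanked by Sox2 were 589 bp apart, against a median of 39.5 bp over desert peaks.

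The gene Grin2b, a subunit of the NMDA receptor, was 268 kb from a peak on chromosome 6 at 135444518 to 135445496 with 29.3 and 37.5; Emp1, which encodes an epithelial membrane protein, was closer, at 61.8 kb. A peak on chromosome 13 at 47348727 to 47349335 with 27.9 and 35.9 had the ubiquitin ligase gene Rnf144b at 101 kb and Id4, an inhibitor of basic helix-loop-helix factors, at 912 kb. The remaining 1 of the 12 strongest lay between Tom1l1 and Kif2b (25.5 and 39.0). Among the 12 the distance to the nearest gene of any kind ranged from 53.3 kb, at Usp3, to 271 kb, in the interval from Tom1l1 to Kif2b.

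The 50 kb limit fell within a continuous range of peaks. The 5 desert peaks nearest to it lay 50.06 to 50.8 kb from a gene end and had strengths of 21.2, 51.1, 22.8, 24.5 and 52.1. The 5 resting-only peaks just short of it lay 49.8 to 49.95 kb away, with 38.1, 58.7, 17.7, 22.3 and 33.3. Both sets spanned weak and strong peaks.

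By the rule all 318 desert peaks were more than 50 kb from a protein-coding gene, so the distances here are a description. The nearest gene of any kind was a long noncoding RNA gene for 100 of the 318, a pseudogene for 95 and a protein-coding gene for 91 (28.6%). It was protein-coding for 53.9% of the nearer intergenic peaks. The median distance was 78.3 kb to the nearest gene end of any kind and 144 kb to the nearest protein-coding gene, and 217 peaks (68.2%) were more than 100 kb from the latter. For 246 peaks the RefSeq promoter table gave the strand of the nearest protein-coding gene. The start of that gene faced the peak at 133 of the 246 (54.1%, exact 95% interval 47.6 to 60.4%), and at 51.2% of the nearer intergenic peaks, and the first interval includes an even split.

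The 5 peaks farthest from any gene had strengths from 17.9, close to the weakest desert peak, to 39.4. On chromosome 5, at 40952867 to 40953403, a peak with 22.3 and 17.1 lay 389 kb from the nearest gene, a pseudogene. It was 672 kb from Rab28, a small GTPase gene. A peak on chromosome 1 at 103784672 to 103784988, with 8.26 and 9.67, was 384 kb from a pseudogene and 984 kb from the cadherin gene Cdh20. On chromosome 2, at 123312235 to 123313023, one with 13.7 and 13.4 lay 381 kb from any gene and 777 kb from Sema6d, which encodes a transmembrane semaphorin. The other 2 of the 5 farthest, at 349 and 348 kb, had strengths of 30.8 (chromosome 8, between Slc10a2 and Efnb2) and 23.5 (chromosome 15, between Csmd3 and Trps1).

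The widest desert peak covered 2120 bp on chromosome 4, at 81564200 to 81566319, with 25.6 and 23.4, and lay 122 kb from Mpdz and 725 kb from Nfib, a transcription factor gene of the developing cortex. The next 4 in width, from 1294 to 1808 bp, had strengths of 20.2 to 44.0. Their replicate summits were 243 to 797 bp apart, whereas those of the widest peak were 10 bp apart.

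Deserts held few of the peaks found after NMDA. Of 327 resting peaks in deserts 318 overlapped no NMDA peak (97.2%), where this share was 89.3% over all resting peaks and 94.4% over intergenic peaks from 1 to 50 kb of a gene end. The overlap is the contrast by which the 318 were chosen, so these shares are a description. The NMDA list is the shorter, with 1684 peaks against 12359 at rest, which limits overlap in every class. Absence from that list is not a measure of SMC1 at a place. The remaining 9 desert peaks (2.75%, exact 95% interval 1.27 to 5.16%) overlapped an NMDA peak. With deserts drawn beyond 100 kb the overlapping share was 4.85%, against 5.37% of the intergenic peaks nearer to genes. In the NMDA list 11 of 1684 peaks lay in deserts (0.65%, 0.33 to 1.17%), against 2.65% of the resting list. All 11 were on autosomes, which gives 0.028 per Mb of desert, against 0.50 per Mb in other intergenic sequence and 1.04 per Mb inside genes. The other 2 of the 11 overlapped no resting peak and lay between Tex29 and A230072I06Rik (12.6 and 14.4) and between Etv1 and Arl4a (17.1 and 6.09).

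The strongest of the 9 shared peaks lay between the signal transducer gene Smad2, at 67.3 kb, and the corepressor gene Skor2, on chromosome 18 at 76378533 to 76379573. It had 62.9 and 52.5 at rest, above all 318 resting-only desert peaks in summed strength. The next 2 lay between Slc24a2 and Mllt3 (26.5 and 29.8) and between the adhesion genes Cntn3 and Chl1 (19.5 and 36.1). The 9 had a median strength of 35.9 and ranged from 19.9 to 115, so they overlapped the 318 over most of their range.

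Overlap is given next by strength. Among the strongest 25% of the resting list 3 of 71 desert peaks were shared (4.23%, exact 95% interval 0.88 to 11.9%), and 147 of 1050 nearer intergenic peaks (14%, 11.96 to 16.2%). Among the weakest 25% the counts were 2 of 86 (2.33%, 0.28 to 8.15%) and 2 of 692 (0.29%, 0.04 to 1.04%). The nearer intergenic share was thus higher among strong peaks, and with 2 or 3 shared desert peaks in each strength class no order is resolved in deserts. Whether the classes differ between deserts and nearer sequence was not tested.

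**Figure D3:**
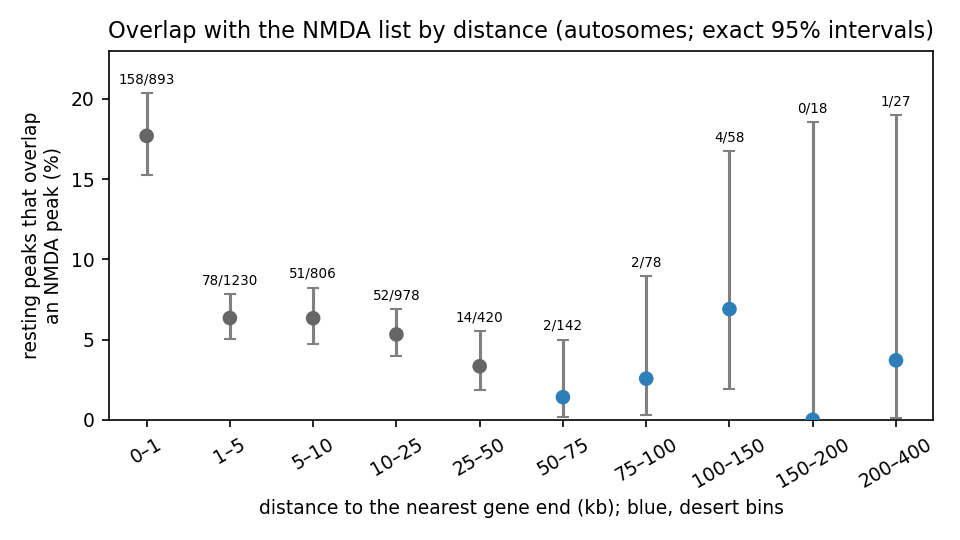
Percent of autosomal intergenic resting peaks that overlap an NMDA peak, by distance to the nearest gene end in kb, with exact 95% intervals and counts above them. The share is 17.7% within 1 kb and 3.33% at 25 to 50 kb; in the blue desert bins, which hold 18 to 142 peaks each, it runs from 0 to 6.90% with wide intervals.

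Desert peaks were also far from other NMDA peaks. The median distance to the nearest one was 969 kb, against 339 kb for the nearer intergenic peaks. An NMDA peak lay within 50 kb of 5 of the 318 (1.57%, exact 95% interval 0.51 to 3.63%) and of 403 of 3289 nearer intergenic peaks (12.3%). These distances are between peak midpoints, and by that measure neither class had an NMDA peak within 1 kb. Both classes were chosen for having no overlap, which makes so short a midpoint distance unlikely. When overlap was widened to allow an NMDA peak within 1 kb, no desert peak was added, but some nearer intergenic peaks were. At 3 of those 5 the NMDA peak was the partner of a shared desert peak in the same interval: at F2rl3 to Isx the resting-only peak (18.6 and 15.8) was 3.14 kb from the shared one, at Smad2 to Skor2 (11.5 and 12.04) 4.16 kb, and at Slc24a2 to Mllt3 (15.1 and 15.8) 6.0 kb. The other 2 lay between Gm46240 and the proteoglycan gene Dcn (26.03 and 21.97), and between the endothelin gene Edn1 and Phactr1 (21.2 and 24.0).

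Desert peaks mostly stood alone. Of the 3180 stretches of over 100 kb between neighbouring genes on the autosomes and the X chromosome, 273 held a resting-only desert peak, and 233 of these held 1. Another 37 stretches held 2, 1 held 3 and 2 held 4. On autosomes, 4.39% of stretches from 100 to 150 kb long had such a peak, 15.4% of those from 200 to 300 kb and 18.5% of those from 500 to 1000 kb. Longer stretches hold more desert sequence, and per Mb of it the order was the other way. The same ranges had 2.23, 1.16 and 0.47 peaks per Mb of desert. Of the 23 autosomal stretches longer than 1000 kb only 1 held such a peak, and these stretches had 0.055 peaks per Mb of desert. Another resting peak of any class lay within 100 kb of 129 of the 318 (40.6%, exact 95% interval 35.1 to 46.2%) and of 76.6% of the nearer intergenic peaks. The median distance to the next resting peak was 132 kb in deserts and 39.9 kb for the nearer intergenic peaks.

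Of the 2 stretches with 4 peaks, the one with the higher summed strength ran from the noncoding gene Gm24212 to Tox3 on chromosome 8. It was 580 kb long and lay between the protein-coding genes Sall1, of a zinc finger repressor, and Tox3, of an HMG-box protein. Its 4 peaks had strengths of 29.2, 41.5, 33.2 and 57.5, from 741 to 957 kb beyond Sall1. The middle pair, at 89849404 to 89849755 and 89850139 to 89850785, were 0.88 kb apart between midpoints. The highest, at 90000667 to 90001577, had 25.6 and 31.9 and was the closest to Tox3, at 246 kb.

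The other run of 4 lay on chromosome 5 between Hs3st1, a heparan sulfate sulfotransferase gene, and Rab28. Its stretch, from Gm23022 to the pseudogene Gm4754, was 936 kb long. The run spanned 172 kb and included the desert peak farthest from any gene. Its strengths were 39.4, 18.4, 25.3 and 27.6. Between Cxxc4, a regulator of Wnt signalling, and Tacr3, the neurokinin receptor gene, on chromosome 3, 3 peaks lay within 24.2 kb, with 39.9, 25.4 and 27.8. Their stretch ran from 4930539C22Rik to Tacr3 (405 kb), and all 3 were 175 to 199 kb from Tacr3. The fourth stretch by count and summed strength, from Lurap1l to Mpdz, held 2: the second strongest desert peak of all (95.6) and a weak one (21.3), 67.4 kb apart.

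Some desert peaks came in close pairs. Another resting peak lay within 10 kb of 40 of the 318 (12.6%, exact 95% interval 9.14 to 16.7%), against 21.8% of the nearer intergenic peaks. At 36 of the 40 the neighbour was itself a resting-only desert peak, and at 3 it was 1 of the shared desert peaks. The closest pair was that between Sall1 and Tox3, followed by a weak pair 0.95 kb apart on chromosome 16 between Gmnc and Ostn (strengths 20.6 and 20.0).

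Several strong peaks had a weaker partner in such a pair. The peak near Cartpt with a strength of 72.6 had one of 37.8 at 4.87 kb, and the peak of 89.4 between Tfcp2l1 and Gli2 had one of 26.1 at 9.28 kb. Between the receptor tyrosine kinase genes Kit and Kdr on chromosome 5, peaks of 40.5 and 60.9 lay 9.49 kb apart, the stronger 70.1 kb from Kdr, the main receptor for vascular endothelial growth factor. Between the chemokine receptor gene Cxcr4, which guides migrating neurons, and Thsd7b on chromosome 1, peaks of 57.97 and 46.3 lay 8.43 kb apart. Pairs in which both peaks were weaker lay 1.90 kb apart between Poteg and the netrin receptor gene Unc5d (27.1 and 26.7), 1.41 kb apart between Cbln2 and Socs6 (21.2 and 27.8) and 6.33 kb apart between A1bg and Myc (40.3 and 23.1). Pairs are counted here as separate peaks, as the authors listed them.

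When noncoding genes were left aside, 8 intervals between neighbouring protein-coding genes held 3 or 4 desert peaks and 41 held 2. Besides Sall1 to Tox3, Hs3st1 to Rab28 and Cxxc4 to Tacr3 these were Cbln2 to Socs6 (4 peaks, strengths 21.2 to 27.8), Sntb1 to Has2 (25.9 to 47.2), Igfbp3 to Tns3 (20.8 to 37.8), D3Ertd751e to Pcdh10 (18.9 to 28.9) and Stxbp6 to Nova1 (18.5 to 28.2). Cbln2 encodes a secreted synapse organiser, Has2 the hyaluronan synthase, Pcdh10 a protocadherin and Nova1 a neuronal splicing regulator. Peaks were bunched at 175 to 199 kb from Tacr3, and spread over 1727 kb between Cbln2 and Socs6 and over 2838 kb between D3Ertd751e and Pcdh10.

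**Figure D4:**
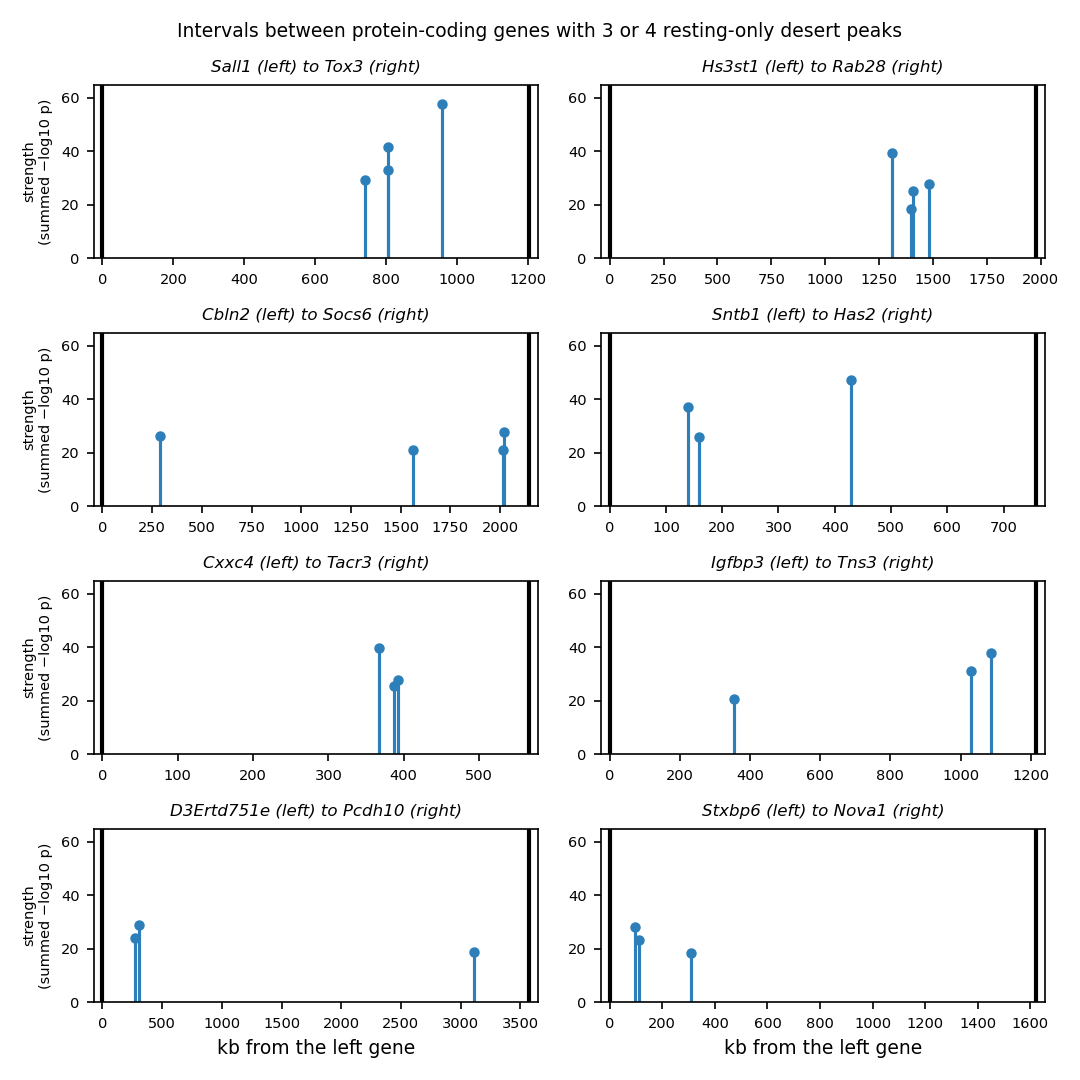
Strength (summed −log10 p, y) and position (kb from the left gene, x) of each resting-only desert peak in the 8 intervals between protein-coding genes (black bars) that hold 3 or 4 of them. The peaks of Cxxc4 to Tacr3 lie within 24.2 kb, and those of Cbln2 to Socs6 and D3Ertd751e to Pcdh10 lie far apart.

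The 318 peaks were flanked by 497 different protein-coding genes, counting the nearest on either side. Of the peaks 88 (27.7%, exact 95% interval 22.8 to 32.9%) had a gene of any of 8 chosen lists on a side, and 33.96% of all desert sequence outside the Y chromosome did. The olfactory and vomeronasal receptor list, given last below, is not among these 8. Peaks in the same interval share their flanking genes, so these intervals are too narrow, and no enrichment test was made. Peaks per Mb of autosomal desert also ran from 2.23 in stretches of 100 to 150 kb to 0.055 in those over 1000 kb. The gene lists were not matched for stretch length or distance to genes. The part of either in the shares and densities below was not tested.

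Developmental transcription factor genes flanked 32 desert peaks (10.1%, exact 95% interval 6.99 to 13.9%), 6.67% of desert sequence and 4.77% of the nearer intergenic peaks. This came to 1.12 peaks per Mb of the desert sequence they flank, where all 318 came to 0.75 per Mb. The 24 genes included Sox2, Id4, Sall1, Mef2c, Nfib, Nfia, Pou3f1, Pou3f3, Satb1, Sox11, Nr2f1, Meis2 and Zeb2. After the peaks flanked by Sox2, Id4 and Sall1, at 451, 912 and 957 kb from these genes, the strongest lay on chromosome 13 at 81943976 to 81944751 (26.5 and 25.4), 147 kb from Cetn3 and 1560 kb from Mef2c, which encodes an activity-regulated neuronal factor. The listed gene was the closest protein-coding gene at only 3 of the 32. Within 50 kb of genes the order was the other way: such genes flanked 6.01% of intergenic sequence and 4.77% of its peaks.

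Cadherin and non-clustered protocadherin genes, whose products join cells, flanked 14 desert peaks (4.40%, 2.43 to 7.28%) but 8.89% of desert sequence, or 0.37 peaks per Mb. The 14 had a median strength of 20.8, against 29.3 for all 318. The 4 strongest lay between Got2 and Cdh8 (24.1 and 10.1), between Cdh19 and Dsel (8.26 and 21.2), and, as a pair, between D3Ertd751e and Pcdh10 (18.2 and 10.7, and 9.59 and 14.3). Their replicate values differed by more than 2-fold in the first 2 cases.

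Genes of synaptic and axonal adhesion were similar, with 19 desert peaks (5.97%, 3.64 to 9.17%), 11.3% of desert sequence and 0.39 peaks per Mb. The strongest lay on chromosome 6 at 104028310 to 104028947 (27.1 and 32.8), 296 kb from Chl1 and 464 kb from the contactin gene Cntn6. A peak between Dscam, whose product lets neurites of 1 cell avoid each other, and Bace2 had 31.6 and 10.5. One 307 kb from the teneurin gene Tenm3 had 16.2 and 24.0, and one 649 kb from Cadm2 had 13.8 and 24.0. Within 50 kb of genes the share of intergenic peaks was likewise below the share of sequence, at 1.95% and 4.33%, and for cadherins at 0.70% and 2.80%. By the nearest protein-coding gene alone 8 peaks counted for each of these lists.

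Axon guidance genes flanked 10 desert peaks (3.14%, 1.52 to 5.71%) and 4.56% of desert sequence, with Ephb1 the strongest, followed by a peak 261 kb from Sema6d (23.9 and 10.4) and one 2045 kb from Efnb2 (11.4 and 19.3). A second peak of Sema6d, with 13.7 and 13.4, is among the 5 farthest from any gene, as is that of Efnb2. An axon guidance gene was the nearest protein-coding gene at 1 of the 10. Glutamate receptor genes flanked 7 (2.20%) and 2.07% of desert sequence. After the peak flanked by Grin2b, the strongest had 12.5 and 26.9 and lay 908 kb from the metabotropic receptor gene Grm3, with Gm5861 closer at 549.8 kb. The next had 9.30 and 24.0 and lay 1682 kb from Grm7, with Gm6749 closer at 80.8 kb. A peak with 14.7 and 7.03 lay 3082 kb from the kainate receptor gene Grik2 and 299.8 kb from Hace1. In these 3 cases the receptor gene was thus the farther of the flanking genes. A glutamate receptor gene was the nearest protein-coding gene at 3 of the 7. For both lists the interval of the peaks' share included the share of desert sequence.

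Genes that respond to neuronal activity flanked little desert sequence and few of its peaks. Of the early response genes only Nr4a2 and Nr4a3, nuclear receptor genes, flanked any: 2 peaks between Kcnj3 and Nr4a2 had 29.3 and 9.67, and 8.26 and 19.8, at 992 and 1082 kb from Nr4a2. The peak 237 kb from Nr4a3 had 11.5 and 8.54. Late response genes flanked 4 peaks: Sorcs3 at 61.7 kb (23.8 and 24.0), Rasgrp1 at 199 kb (13.5 and 22.4), Plk2 at 567 kb (13.8 and 13.7) and Inhba at 732 kb (16.2 and 8.54). The early and late response lists thus had 0.94% and 1.26% of the 318, against 0.43% and 0.57% of desert sequence, and the intervals, from 0.19 to 2.73% and from 0.34 to 3.19%, do not resolve the differences. Per Mb of the desert sequence they flank this came to 1.65 and 1.64 peaks, from 3 and 4 peaks, against 0.75 for all 318. None was flanked by a gene of cohesin or CTCF (0 of 318, interval up to 1.15%), which had 0.0002% of desert sequence. Olfactory and vomeronasal receptor genes flanked 2 desert peaks (0.63%) and 1.40% of the sequence.

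**Figure D5:**
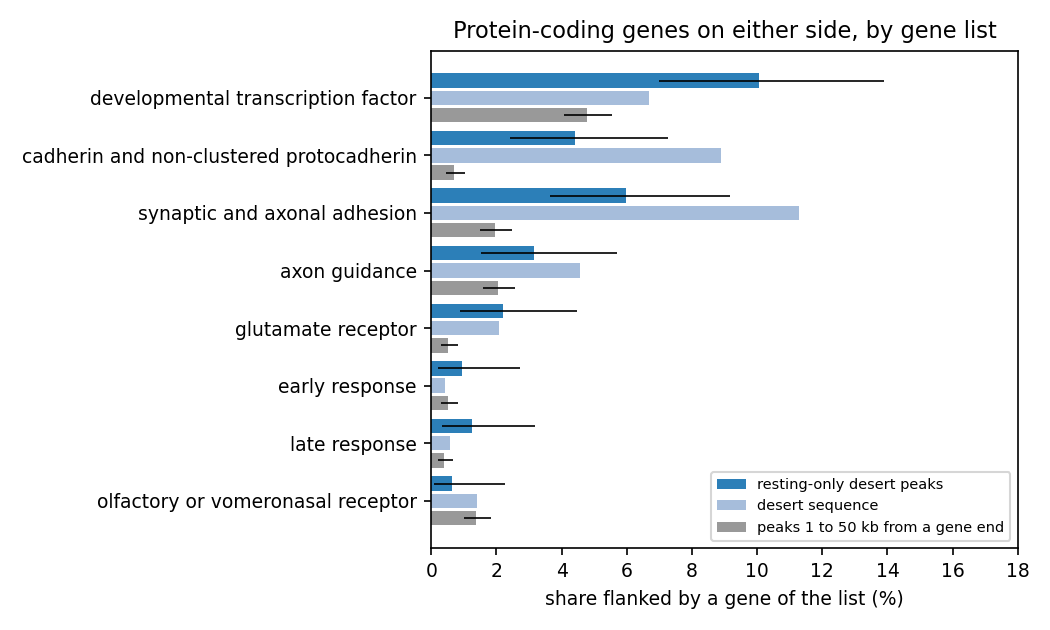
Percent of the 318 resting-only desert peaks (blue, with exact 95% intervals), of desert sequence (light blue) and of resting-only peaks 1 to 50 kb from a gene end (grey, with exact 95% intervals) flanked by a protein-coding gene of each list; cohesin and CTCF genes, with 0 peaks, are not drawn. Developmental transcription factor genes flank 10.1% of desert peaks and 6.67% of desert sequence; cadherin genes flank 4.40% and 8.89%.

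All 19 autosomes and the X chromosome held desert peaks. Autosomes ranged from 0.44 per Mb of desert on chromosome 14 (10 peaks) to 1.49 per Mb on chromosome 13 (25 peaks), with 0.81 per Mb in all. The X chromosome held 4 peaks in 37.5 Mb, or 0.11 per Mb, lower than any autosome. Of these, 3 lay between Pof1b and Chm (12.6 and 18.5), between Nhs and Reps2 (13.8 and 13.3) and between the corepressor gene Bcor and Atp6ap2 (16.2 and 9.67). Of all resting peaks 114 of 12359 were on the X chromosome (0.92%, exact 95% interval 0.76 to 1.11%) and of desert peaks 1.26% (0.34 to 3.19%), so few peaks of any class lay there. The labels do not give the sex of the embryos.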

How the data were processed

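Per the submitters' processing notes, reads went through FastQC, Trimmomatic, BWA, SAMtools and MACS2, with the builds mm10 and GRCm38.p6. Their versions and settings were "not given in the sources used here". For each condition the authors deposited 1 list in the 20-column layout of the irreproducible discovery rate (IDR) tool. It holds the deposited −log10 p of each peak in both replicates and their sum (strength here), the −log10 of the IDR, at most 0.05, and a deposited score scaled up to 1000. Replicate columns carry no replicate numbers.

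Members and gene lists were chosen with earlier results of these data known. Peaks were placed by midpoint against 49993 positioned genes of the RefSeq table, of which 21896 are protein-coding, in Python 3.11.15 with pandas 2.3.3 and SciPy 1.17.1. The placement was tested on simulated data. Intervals are exact Clopper-Pearson 95% intervals and cover counting error over peaks only. Density and the share of desert sequence use stretches between annotated genes, a measure added after seeing the data. Peaks named are the 12 strongest, the 5 farthest and 5 widest, 5 on each side of the limit, shared ones, the 4 fullest stretches and up to 4 per gene list. Peaks with an NMDA peak within 50 kb, close pairs, those on the X chromosome and the 8 fullest protein-coding intervals were chosen after their values were seen. The planned CTCF motif and base composition need a genome sequence and were not run. Input values were not used here. One peak on the X chromosome is counted but not described here.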

Additional observations from a re-analysis of the deposited data

How the results depend on the processing

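The number of resting-only desert peaks follows the definition of a desert: 731 beyond 25 kb, 98 beyond 100 kb, and 1216 when only protein-coding genes bounded a desert, against 318. Keeping only peaks with an IDR of at most 0.01 in both lists left 180, and 0% of desert peaks were shared, against 2.75%. The share with another resting peak within 100 kb, 40.6%, was 27.7% within 50 kb, 61.9% within 200 kb and 28.3% among the 173 of the 318 with an IDR up to 0.01. The 180 above also include peaks whose NMDA partner missed that IDR. With 1 replicate column alone the median strength was 13.9 to 14.3, below that of the nearer intergenic peaks in both columns. Requiring 50% of the resting peak to be covered, allowing an NMDA peak within 1 kb, or placing peaks by summit gave 317 or 318 peaks. No paired analysis was possible because the replicate columns carry no replicate numbers and no result comes from a test between conditions. The depth of each library is unknown, and each list was made from both replicates, so no list could be remade without one. Searches for the CTCF motif and the base composition, over the whole peak or around the summit, were not run, since no genome sequence was used here.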
